A study of Mus musculus with 12 samples.

Results

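Granulosa cells given activin A together with its antagonist follistatin were set against cells of the same experiments given only the vehicle. The cells came from immature mice aged 21 to 23 days, were pooled over 14 to 20 ovaries and were grown in primary culture. After 24 h of activin A plus follistatin, of activin A alone or of PBS, RNA was amplified from 100 ng and read on Illumina Sentrix Mouse-6 arrays. The comparison used 4 arrays with activin plus follistatin and 4 with PBS, 8 of the 12 arrays of the study, chosen by their titles. The other 4, with activin alone, entered the same fit and are given beside the results. Arrays with the same number come from 1 experiment, and A+F 1 to A+F 4 and PBS 1 to PBS 4 stand for the arrays of the compared treatments in experiments 1 to 4. Doses are not given in the labels, and in the samples used here follistatin was always added together with activin, so effects of follistatin and of the combination cannot be told apart. Strain is not given either, and because ovaries were pooled, an array stands for a pool and not for an animal.

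Activin is a dimer of inhibin beta subunits, made by the granulosa cells themselves, and signals through type II and type I serine-threonine kinase receptors to Smad2 and Smad3. Follistatin binds activin, and more weakly some bone morphogenetic proteins, and keeps them from their receptors. Its gene is itself a target of activin in several cell types, so that the pathway holds its own brake. The comparison asks how cells given activin with the antagonist differed from cells given neither. In RNA from whole cultures, fewer cells of a type and less RNA per cell cannot be told apart.

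Of the 46084 probes tested, 557 (1.21%) differed between activin plus follistatin and PBS at an adjusted p below 0.05, 276 higher (0.599%) and 281 lower (0.61%). Only 9854 probes could be given a gene name, and they stood for 8135 genes, of which 176 (2.16%) were called, 98 higher (1.2%) and 78 lower (0.959%). The other 371 called probes have no name here and ranged in log2 difference between -2.63 and 1.77. All 176 genes kept their direction in 4 of 4 experiments, against 22.2% of all named genes. The 4 arrays of each treatment did not overlap for 48 of the 98 higher genes and for 49 of the 78 lower genes, against 5.42% of all named genes. The genes were called from these same differences within experiments, so both shares follow in part from the selection and are no separate support. Most differences were small. The median was 0.35 on the log2 scale for the genes called higher and -0.46 for those called lower, and 3 genes rose and 9 fell by more than 1. The median difference of the higher genes was 0.31, 0.40, 0.36 and 0.33 in experiments 1 to 4, and that of the lower genes -0.44, -0.52, -0.43 and -0.43. The count rests on the treatment of the experiments: without the experiment as a block 21 named genes were called, with a random block 38, and with the 8 compared arrays alone 455. Left out in turn, single arrays brought the count to between 68 genes (without the PBS array of experiment 3) and 116 (without the activin plus follistatin array of experiment 4).

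A gene with several named probes was read through the probe with the highest mean. Of the called genes 41 had more than 1 probe, and another probe was called in the same direction for 5 of them and in the opposite direction for 0. In Uck1, Flrt3, Fbln1, Eef2 and C1s1 another probe above background was not called. For Gpnmb, Prlr and Rrm2 the other probe had a mean of 7.08, 6.98 and 7.24, below the background of 7.31, and gave no second reading. The background is the highest mean of a control spot, and 4075 of the named genes (50.1%) lay above it. The values are on a log2-like scale with a lowest value of 6.75. How background was treated is not given, and differences of dim genes may be understated.

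**Figure D1:**
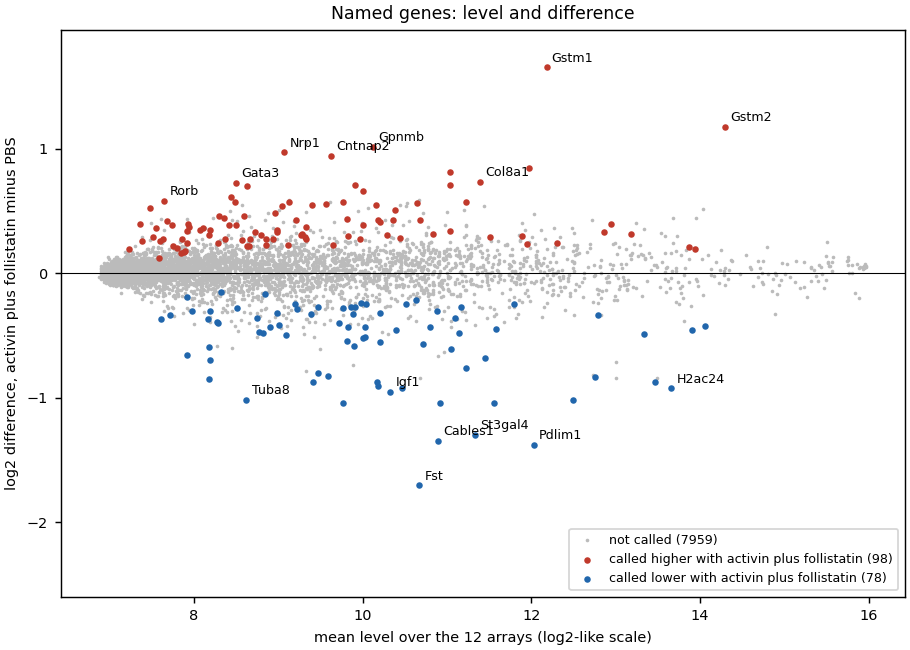
Each point is 1 of the 8135 named genes, with its mean level over the 12 arrays (horizontal, log2-like scale) and the fitted log2 difference of activin plus follistatin minus PBS (vertical). Genes called higher (98) are red, genes called lower (78) blue and the others grey, and Fst lies lowest at -1.70 and Gstm1 highest at 1.65.

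Promoters of some of the most changed genes are shown here because a Smad-regulated gene is often described by short elements near its start. They are those of 2 of the largest falls, Pdlim1 and St3gal4, and of the 2 largest rises, Gstm1 and Gstm2. Fst, with the largest fall, has no window in the table of promoters, and that of Cables1, which fell more than St3gal4, is not shown. Each sequence runs 5′ to 3′ over 300 bases, 250 before the annotated start and 50 after it, from RefSeq on GRCm38.p6. Capitals mark CAGAC or its reverse complement GTCTG, the core letters of the Smad-binding element. The windows are chr19:40271567-40271866 (minus strand), chr9:35116815-35117114 (minus strand), chr3:108017924-108018223 (minus strand) and chr3:107986371-107986670 (minus strand).
Pdlim1: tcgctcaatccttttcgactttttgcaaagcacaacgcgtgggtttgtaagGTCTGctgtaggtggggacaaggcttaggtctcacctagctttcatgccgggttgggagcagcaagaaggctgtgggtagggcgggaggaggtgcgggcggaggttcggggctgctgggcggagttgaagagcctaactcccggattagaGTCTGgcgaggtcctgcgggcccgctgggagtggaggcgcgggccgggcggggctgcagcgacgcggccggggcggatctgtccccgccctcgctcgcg
St3gal4: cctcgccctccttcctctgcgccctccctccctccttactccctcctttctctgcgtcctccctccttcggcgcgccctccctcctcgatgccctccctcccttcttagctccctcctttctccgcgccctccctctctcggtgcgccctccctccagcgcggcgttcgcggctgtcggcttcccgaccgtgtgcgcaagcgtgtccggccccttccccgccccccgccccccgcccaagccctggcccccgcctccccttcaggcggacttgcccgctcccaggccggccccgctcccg
Gstm1: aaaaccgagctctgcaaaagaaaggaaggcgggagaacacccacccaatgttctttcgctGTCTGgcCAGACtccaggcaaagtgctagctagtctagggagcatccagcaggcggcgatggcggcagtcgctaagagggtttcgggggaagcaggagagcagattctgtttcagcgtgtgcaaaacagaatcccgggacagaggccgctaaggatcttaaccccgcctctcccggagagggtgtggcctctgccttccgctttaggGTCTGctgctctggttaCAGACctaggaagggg
Gstm2: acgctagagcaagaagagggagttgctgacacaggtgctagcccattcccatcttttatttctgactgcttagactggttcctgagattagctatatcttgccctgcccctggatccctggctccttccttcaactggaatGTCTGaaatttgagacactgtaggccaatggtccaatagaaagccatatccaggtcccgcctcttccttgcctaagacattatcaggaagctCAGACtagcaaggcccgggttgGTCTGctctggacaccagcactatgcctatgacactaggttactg
The letters occur at 2 places in the Pdlim1 window, at 4 in the Gstm1 window and at 3 in the Gstm2 window, and the St3gal4 window holds none. Gstm1 has 2 windows in the table, of which the first is shown.

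The same letters were counted in the windows of all genes that changed. CAGAC or GTCTG, on either strand, stood in 56.6% of the 83 windows of genes called higher and in 48.5% of the 68 windows of genes called lower, against 48.1% of the 6405 windows of named genes and 49.7% of all 27025 windows. Its palindrome GTCTAGAC was in 0% of the higher and 1.47% of the lower genes, against 0.25% of the named genes. GGCGC or GCGCC, a GC-rich Smad element, was in 55.4% of the higher and 70.6% of the lower genes, against 53.4%. The cyclic AMP response element TGACGTCA was in 6.02% of the higher and 4.41% of the lower genes, against 2.72%. These shares describe letters in the windows and were not tested.

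In the activin and TGF-beta lists, Fst, Bmpr1b and Ltbp1 were called. Fst, the gene of follistatin, had the largest fall among the named genes. Its level was 8.42, 9.20, 8.67 and 8.50 in the activin plus follistatin cultures of experiments 1 to 4, 13.02, 12.88, 12.66 and 13.11 with activin alone, and 9.96, 10.74, 10.46 and 10.44 with PBS. Every activin plus follistatin array lay below every PBS array, and every activin array above. The fitted fall was 1.70 ± 0.15 (SE) on the log2 scale (adjusted p = 0.000956), while activin alone differed from PBS by 2.52 (adjusted p = 1.68e-05). The arrays read the cells' own mRNA, not the protein that was added.

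Bmpr1b, a type I receptor for bone morphogenetic proteins whose mutation raises litter size in sheep, was at 9.26, 9.64, 9.65 and 10.26 in activin plus follistatin cultures, against 9.71, 10.52, 10.20 and 10.58 in PBS cultures. The groups overlapped, and within experiments it was lower in 4 of 4, by 0.55 ± 0.095 in the fit (adjusted p = 0.0257). Ltbp1, which encodes a matrix protein that holds latent TGF-beta, was at 10.06, 10.50, 11.11 and 10.07 with activin plus follistatin, against 9.50, 9.86, 10.51 and 9.61 with PBS. It rose by 0.57 ± 0.059 (adjusted p = 0.0023) within experiments, and the groups overlapped. Activin alone differed from PBS by 0.42 (adjusted p = 0.0271) for Bmpr1b and -0.86 (adjusted p = 3.07e-05) for Ltbp1. The calls of Fst and Ltbp1 held when any 1 of the 8 arrays was left out. The difference missed the threshold without any 1 array other than PBS 4 for Bmpr1b (adjusted p up to 0.119). Of the other members, 0 of 13 measured ligands, none of them an inhibin subunit, and 0 of 7 Smads and Smad regulators were called, with Gdf1 at -0.13 ± 0.058 (adjusted p = 0.497) and Smurf1 at 0.045 ± 0.046 (adjusted p = 0.859). The receptor list had 14 measured members and a median of 0.066, and the list of secreted antagonists 5 and -0.029, against 0.0070 over all named genes. The list of receptors and co-receptors also takes in Ltbp1, which is a matrix protein, and held the calls of Bmpr1b and Ltbp1. That is 7.14% lower (Bmpr1b), against 0.959% of all named genes, and 7.14% higher (Ltbp1), against 1.2%, so that no receptor of the list was called higher. Fst was the called member of the antagonists (20% lower, against 0.959%).

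The falls next in size after Fst were in genes of the cytoskeleton, the cell cycle and the sugar chains of proteins. Pdlim1, a PDZ and LIM domain protein of actin fibres, was at 10.51, 11.69, 11.05 and 10.56 with activin plus follistatin, against 12.12, 12.64, 12.27 and 12.29 with PBS, and fell by 1.38 ± 0.16 (adjusted p = 0.00439). St3gal4, which caps sugar chains with sialic acid, was at 9.92, 10.28, 10.19 and 10.21 with activin plus follistatin, against 11.29, 11.60, 11.45 and 11.44 with PBS. In both genes the groups were apart, and St3gal4 fell by 1.30 ± 0.055 (adjusted p = 1.26e-05), with similar differences of -1.38, -1.33, -1.26 and -1.23 in experiments 1 to 4. Chst8, a sulfotransferase that marks the sugar chains of luteinizing hormone in the pituitary, was at 8.27, 8.62, 8.42 and 8.26 with activin plus follistatin, against 9.43, 9.37, 9.56 and 9.39 with PBS, a fall of 1.05 ± 0.11 (adjusted p = 0.00239). Cables1, which links cyclin-dependent kinases to Abl, fell by 1.35 ± 0.22 (adjusted p = 0.0218), with -0.44, -1.56, -1.46 and -1.92 in experiments 1 to 4, so that experiment 1 showed the smallest difference. Activin alone differed from PBS by 0.46 (adjusted p = 0.182) for Pdlim1, 0.96 (adjusted p = 1.28e-05) for St3gal4, 2.02 (adjusted p = 9.99e-06) for Chst8 and 2.11 (adjusted p = 0.000362) for Cables1, and both contrasts share the PBS arrays. The calls of Pdlim1, St3gal4 and Chst8 held when any 1 of the 8 arrays was left out. The call was lost without any 1 array other than A+F 1, A+F 4 or PBS 1 for Cables1 (adjusted p up to 0.105).

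**Figure D2:**
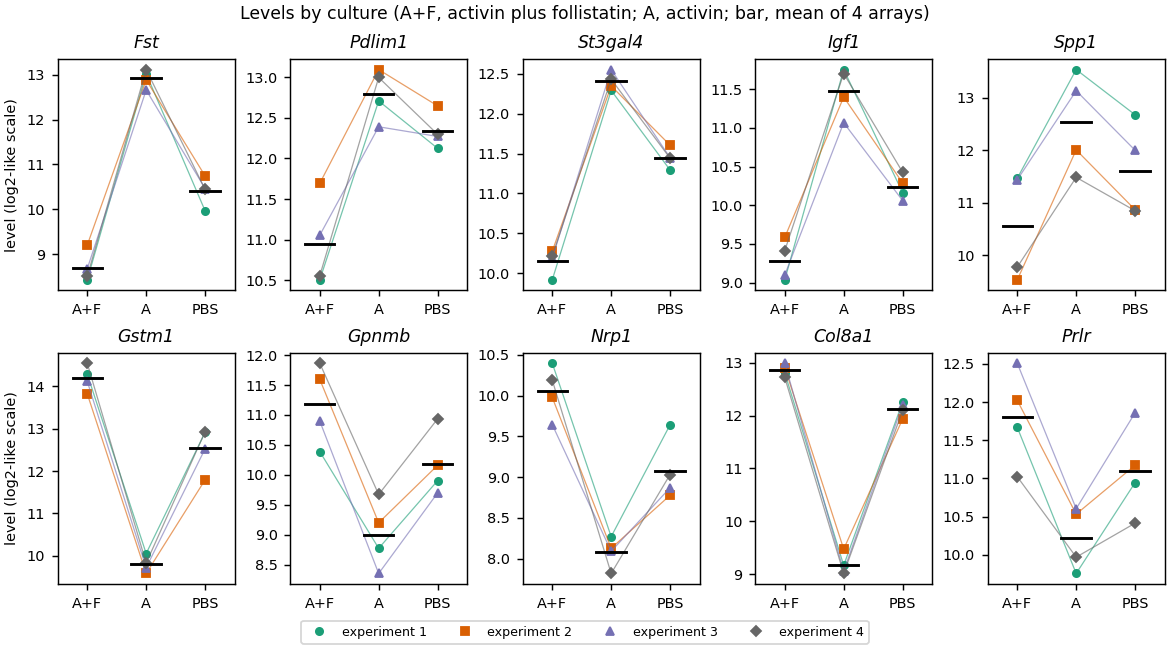
Levels of 10 genes (vertical, log2-like scale) in the 4 experiments (joined symbols) with activin plus follistatin (A+F), activin (A) and PBS, with a bar at the mean of 4 arrays. In the top row the A+F means lie below the PBS means and in the bottom row above them, with the activin means on the far side of PBS in each panel.

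Among secreted proteins, Igf1, the growth factor that acts with follicle-stimulating hormone on granulosa cells, and Spp1, osteopontin, fell. Igf1 was at 9.03, 9.58, 9.10 and 9.41 with activin plus follistatin, against 10.16, 10.29, 10.06 and 10.43 with PBS, with no overlap, a fall of 0.95 ± 0.12 (adjusted p = 0.00531). It was the called member among 9 measured genes of the IGF system (11.1% lower, against 0.959% of all named genes). Spp1 was at 11.46, 9.53, 11.44 and 9.77 with activin plus follistatin, against 12.67, 10.86, 11.997 and 10.85 with PBS. Experiments 1 and 3 were high in both treatments and the groups overlapped, and Spp1 fell by 1.04 ± 0.13 within experiments (adjusted p = 0.00529). Cxcl1, a chemokine for neutrophils, fell by 0.92 ± 0.15 (adjusted p = 0.0228). Activin alone differed from PBS by 1.25 (adjusted p = 0.000199) for Igf1, 0.94 (adjusted p = 0.00181) for Spp1 and 0.33 (adjusted p = 0.355) for Cxcl1. The calls of Igf1 and Spp1 held when any 1 of the 8 arrays was left out. With a whole experiment left out, the call ended for Spp1 (without experiment 1, adjusted p up to 0.0629). The gene was no longer called without any 1 array other than A+F 3 or PBS 2 for Cxcl1 (adjusted p up to 0.0995).

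The other large falls were in enzymes, adhesion receptors, a tubulin, a transporter and a histone, H2ac24, which is given further below. Cers5, a ceramide synthase, was at 9.61, 10.11, 9.97 and 10.09 with activin plus follistatin, against 10.85, 11.13, 10.91 and 11.06 with PBS (-1.04 ± 0.078, adjusted p = 0.000439). Uck1, which phosphorylates uridine and cytidine, was at 11.35, 11.56, 11.64 and 11.22 with activin plus follistatin, against 12.45, 12.47, 12.60 and 12.32 with PBS (-1.02 ± 0.062, adjusted p = 0.000141). In both genes the groups were apart and these probes differed by close to 1 on the log2 scale in each experiment. The other 2 Uck1 probes, dimmer but above background (means 7.88 and 7.81), differed by -0.22 and -0.21 and were not called (adjusted p = 0.427 and 0.397). A second Flrt3 probe (mean 7.84) differed by -0.28 and was not called (adjusted p = 0.299), and a second Slco3a1 probe fell by 1.00 (adjusted p = 0.00381). Tuba8, an alpha-tubulin, fell by 1.02 ± 0.069 (adjusted p = 0.000249), although its level with activin plus follistatin, 7.75, was close to background. Dag1, dystroglycan, the laminin receptor, fell by 0.88 ± 0.14 (adjusted p = 0.0196), Flrt3, a leucine-rich adhesion receptor, by 0.88 ± 0.14 (adjusted p = 0.0203) and Slco3a1, an organic anion transporter, by 0.91 ± 0.18 (adjusted p = 0.0483). The calls of Cers5, Uck1 and Tuba8 held when any 1 of the 8 arrays was left out. Significance was lost without any 1 array other than A+F 4, PBS 1 or PBS 3 for Dag1 (adjusted p up to 0.0835), without any 1 array other than A+F 3 or PBS 1 for Flrt3 (adjusted p up to 0.0901) and without any 1 array other than A+F 4 for Slco3a1 (adjusted p up to 0.17).

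**Figure D3:**
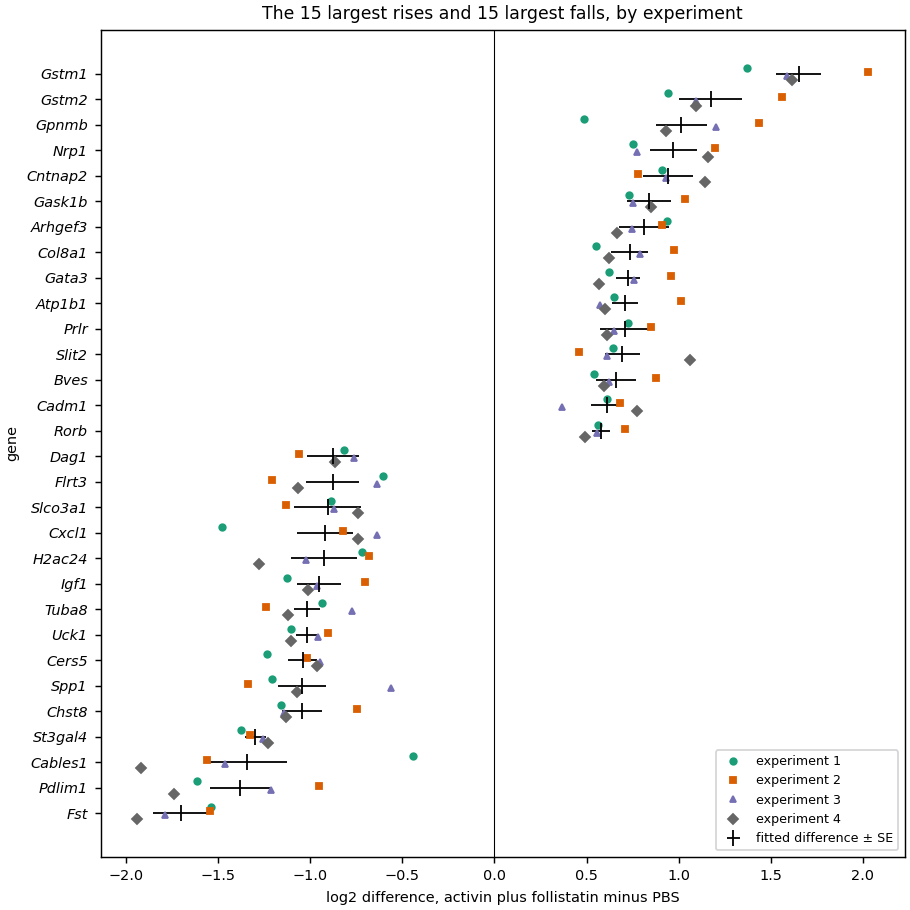
Log2 difference of activin plus follistatin minus PBS (horizontal) within each of the 4 experiments (symbols) and in the fit (bar with SE) for the 15 named genes with the largest rises (top) and the 15 with the largest falls (bottom). All symbols of a gene lie on 1 side of 0, and the widest spread is that of Cables1, with -0.44 in experiment 1 and -1.92 in experiment 4.

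The largest rises were in 2 mu-class glutathione S-transferases, enzymes that conjugate glutathione to reactive compounds. Gstm1 was at 14.28, 13.82, 14.12 and 14.54 with activin plus follistatin, 10.06, 9.59, 9.72 and 9.83 with activin alone and 12.91, 11.79, 12.52 and 12.92 with PBS. The 3 treatments did not overlap, and Gstm1 rose by 1.65 ± 0.12 (adjusted p = 0.000389). Gstm2 was at 15.65, 15.29, 15.55 and 15.84 with activin plus follistatin, against 14.71, 13.73, 14.45 and 14.75 with PBS, again without overlap, and rose by 1.17 ± 0.17 (adjusted p = 0.0118). A second Gstm2 probe also rose (1.40), while a second Gstm1 probe was at background (mean 6.93). Their coding sequences are much alike, so that the probes may share targets, and the values are uncertain as measures of each gene alone. Mgst3, a membrane-bound enzyme of the same function, rose by 0.37 ± 0.072 (adjusted p = 0.0481), and these 3 were the called members of 21 measured glutathione and antioxidant genes, whose median was 0.018. They are 14.3% of that list, against 1.2% of all named genes called higher. Activin alone differed from PBS by -2.74 (adjusted p = 3.47e-06) for Gstm1, -1.53 (adjusted p = 0.000537) for Gstm2 and -0.61 (adjusted p = 0.000816) for Mgst3. The call of Gstm1 held when any 1 of the 8 arrays was left out. The adjusted p was above 0.05 without A+F 2 or PBS 3 for Gstm2 (adjusted p up to 0.0635) and without any 1 array other than A+F 4 for Mgst3 (adjusted p up to 0.165).

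Rises also took in a group of axon guidance and neuronal adhesion genes, cues and receptors that direct cell migration and contact in many tissues. Nrp1, a receptor for semaphorins and VEGF, was at 10.40, 9.98, 9.64 and 10.19 with activin plus follistatin, against 9.64, 8.78, 8.87 and 9.03 with PBS, and rose by 0.97 ± 0.13 (adjusted p = 0.00699). Slit2, a secreted repellent, was at 9.40, 9.63, 9.42 and 9.74 with activin plus follistatin, against 8.75, 9.17, 8.80 and 8.68 with PBS, and rose by 0.70 ± 0.095 (adjusted p = 0.00881). Neither gene had overlapping groups, nor did Cntnap2, a neurexin-family adhesion protein, at 11.29, 10.56, 10.62 and 11.20 with activin plus follistatin, against 10.38, 9.78, 9.69 and 10.06 with PBS (0.94 ± 0.14, adjusted p = 0.0118). Robo4, a receptor of the Slit receptor family, rose by 0.52 ± 0.069 (adjusted p = 0.00775), at 7.92 with activin plus follistatin against 7.40 with PBS, where it was near background. Of 53 measured genes of this list 4 rose (7.55%, against 1.2% of all named genes) and 2 fell (3.77%, against 0.959%), and its median was 0.017. The falls were Flrt3, given above, and Plxna2, a semaphorin receptor. Plxna2 was at 9.23, 9.30, 8.88 and 8.94 with activin plus follistatin, against 9.91, 10.35, 9.46 and 9.93 with PBS, a fall of 0.82 ± 0.12 (adjusted p = 0.0138) without overlap. A second probe was called in the same direction for Nrp1 (0.84) and for Cntnap2 (0.43). The calls of Nrp1, Slit2 and Robo4 held when any 1 of the 8 arrays was left out. With a whole experiment left out, the call ended for Nrp1 (without experiment 2, adjusted p up to 0.0556), Slit2 (without experiment 3, adjusted p up to 0.077) and Robo4 (without experiment 3, adjusted p up to 0.0915). The call ended without PBS 1, PBS 2 or PBS 3 for Cntnap2 (adjusted p up to 0.0663) and without any 1 array other than A+F 1, A+F 3 or A+F 4 for Plxna2 (adjusted p up to 0.0693).

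Robo4 is also a marker of endothelium, and the other 4 measured endothelial markers were not called. Their differences were 0.037 ± 0.044 for Pecam1, 0.081 ± 0.042 for Emcn, 0.069 ± 0.027 for Eng and -0.022 ± 0.055 for Egfl7, and their means of 7.23 to 7.42 in both treatments lay near the background of 7.31. The summed level of the 5 markers was 37.2 to 37.5 with activin plus follistatin and 36.4 to 37.2 with PBS. Whether a share of endothelial cells had a part in the rise of Robo4 was not tested.

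Of the remaining large rises, several genes encode proteins of the cell surface and the matrix. Gpnmb, a transmembrane glycoprotein, was at 10.39, 11.60, 10.90 and 11.87 with activin plus follistatin, against 9.90, 10.16, 9.70 and 10.94 with PBS. Experiment 4 was high in both treatments and the groups overlapped, and the rise within experiments was 1.01 ± 0.14 (adjusted p = 0.00899). Col8a1, a short-chain collagen of basement membranes, was at 12.81, 12.91, 12.99 and 12.72 with activin plus follistatin, 9.17, 9.48, 9.06 and 9.02 with activin alone and 12.26, 11.93, 12.20 and 12.10 with PBS. The 3 treatments were apart, and Col8a1 rose by 0.73 ± 0.10 (adjusted p = 0.00881), while activin alone differed from PBS by -2.94 (adjusted p = 7.65e-07). Atp1b1, a subunit of the sodium pump, rose by 0.71 ± 0.072 (adjusted p = 0.00209), Bves, a Popeye-domain protein of cell contacts, by 0.66 ± 0.11 (adjusted p = 0.0217) and Cadm1, an immunoglobulin-like adhesion molecule, by 0.61 ± 0.087 (adjusted p = 0.0111). Gask1b, a Golgi-associated kinase, rose by 0.84 ± 0.12 (adjusted p = 0.0111) and Arhgef3, a guanine nucleotide exchange factor, by 0.81 ± 0.13 (adjusted p = 0.0228). The calls of Gpnmb, Col8a1 and Atp1b1 held when any 1 of the 8 arrays was left out. With a whole experiment left out, the call ended for Gpnmb (without experiment 2 or 3, adjusted p up to 0.077) and Col8a1 (without experiment 3, adjusted p up to 0.0671). The difference missed the threshold without any 1 array other than PBS 2 for Bves (adjusted p up to 0.0903), without PBS 1 or PBS 2 for Cadm1 (adjusted p up to 0.0568) and without A+F 3 or PBS 4 for Gask1b (adjusted p up to 0.0544). The call was lost without any 1 array other than PBS 4 for Arhgef3 (adjusted p up to 0.107).

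Apart from the guidance and neuronal adhesion genes given above, up to 2 members were called in each of the matrix and adhesion lists. Of 27 collagens, Col8a1 and Col4a5, a chain of basement membrane collagen (0.28 ± 0.051, adjusted p = 0.0347), rose (7.41%, against 1.2% of all named genes) and none fell. Of 31 matrix glycoproteins and proteoglycans none rose, and Spp1 and Fbln1 fell (6.45%, against 0.959%). Fbln1, fibulin 1, was at 9.14, 9.51, 9.62 and 8.92 with activin plus follistatin, against 9.95, 10.18, 10.57 and 9.99 with PBS, without overlap (-0.87 ± 0.070, adjusted p = 0.000529), and a second probe (mean 8.45) differed by -0.45 and was not called (adjusted p = 0.107). Of 73 cadherins and catenins, Pcdh9, a protocadherin, rose by 0.38 ± 0.031 (adjusted p = 0.000529) and Jup, plakoglobin of desmosomes and adherens junctions, by 0.38 ± 0.043 (adjusted p = 0.00361), and none fell. These rises are 2.74% of that list, against 1.2% of all named genes. None of 86 proteases and inhibitors was called (Timp2, an inhibitor of metalloproteinases, at 0.54 ± 0.14, adjusted p = 0.118), nor any of 26 integrins and junction proteins. The calls of Fbln1, Pcdh9 and Jup held when any 1 of the 8 arrays was left out. The call was lost without any 1 of the 8 for Col4a5 (adjusted p up to 0.133).

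Most of the measured hormone and steroid genes were not called. Cyp11a1, which makes pregnenolone from cholesterol, was at 13.98, 12.57, 14.67 and 10.38 with activin plus follistatin, against 13.65, 12.48, 14.42 and 10.65 with PBS, a difference of 0.10 ± 0.15 (adjusted p = 0.911). It varied more between experiments than between treatments and was lowest in experiment 4 in both. Star, which brings cholesterol into mitochondria, differed by 0.047 ± 0.042 (adjusted p = 0.825), Lhcgr, the receptor of luteinizing hormone, by 0.067 ± 0.032 (adjusted p = 0.534) and Esr1, the estrogen receptor alpha, by 0.025 ± 0.046 (adjusted p = 0.932), these 3 near background. The granulosa markers Amhr2, the receptor of anti-Mullerian hormone, Wt1 and Gata4 differed by 0.20 ± 0.11, 0.35 ± 0.080 and 0.19 ± 0.10 and were not called (adjusted p = 0.613, 0.0875 and 0.617). Only 5 of 20 granulosa markers had a named probe, all above background, and Fst was the called member. Their summed level was 49.8 to 53.4 with activin plus follistatin and 50.9 to 54.1 with PBS. Without Fst the sum of the other 4, each with a positive difference, was 41.3 to 45.0 with activin plus follistatin and 40.4 to 43.9 with PBS. Many hormone genes of these cells, such as the inhibin subunits, aromatase and the receptor of follicle-stimulating hormone, have no named probe here and were not analysed.

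Called hormone-related genes were Prlr and Hsd11b2. Prlr, the prolactin receptor, which sustains the corpus luteum in rodents, was at 11.67, 12.02, 12.51 and 11.02 with activin plus follistatin, against 10.95, 11.17, 11.86 and 10.41 with PBS. Levels differed more between experiments than between treatments and overlapped, and the rise within experiments was 0.71 ± 0.14 (adjusted p = 0.0412). Hsd11b2, which inactivates corticosterone, was at 7.28, 7.27, 7.28 and 7.15 with activin plus follistatin, against 7.93, 8.24, 8.30 and 7.90 with PBS, a fall of 0.85 ± 0.077 (adjusted p = 0.00104) without overlap. Its level with activin plus follistatin was at background, so the difference on this scale may be understated. Hsd11b2 was the called member of 14 steroid genes (7.14% lower, against 0.959% of all named genes, median -0.016). Prlr was the called member of 10 hormone receptors (10% higher, against 1.2%, median 0.014). None of 19 genes of ovulation and luteinization was called, with Sphk1, a sphingosine kinase, nearest at 0.58 ± 0.12 (adjusted p = 0.0595). The call of Hsd11b2 held when any 1 of the 8 arrays was left out. The gene was no longer called without any 1 array other than A+F 4 for Prlr (adjusted p up to 0.153).

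Several genes of DNA synthesis fell with activin plus follistatin. Of 19 measured replication genes 5 fell (26.3%, against 0.959% of all named genes) and none rose. A negative difference was found in 18 (94.7%, against 44.7% of all named genes), and the median was -0.17. Among these, Tyms, Rfc3, Slbp, Orc5, Orc3 and Pole3 differed by less than their SE (-0.0030 to -0.054). Rrm2, the subunit of ribonucleotide reductase that limits the supply of deoxynucleotides, was at 8.60, 8.77, 8.71 and 8.46 with activin plus follistatin, against 9.07, 9.26, 9.06 and 8.82 with PBS, without overlap (-0.42 ± 0.055, adjusted p = 0.00689). Uhrf1, which carries DNA methylation through replication, fell by 0.57 ± 0.10 (adjusted p = 0.0308), Rfc5, of the clamp loader, by 0.44 ± 0.079 (adjusted p = 0.0322), Cdc6, a licensing factor, by 0.39 ± 0.071 (adjusted p = 0.0316) and Tk1, thymidine kinase, by 0.37 ± 0.069 (adjusted p = 0.0389). Of 21 mitotic genes, 17 had a negative difference (81.0%, against 44.7%), with a median of -0.26, and 1 was called (4.76%, against 0.959%). It was Cenpa, the histone of centromeres, at 10.97, 10.61, 10.70 and 10.13 with activin plus follistatin, against 11.74, 11.24, 11.48 and 10.99 with PBS, without overlap (-0.76 ± 0.095, adjusted p = 0.0054). Cables1 was the called member of 13 G1 regulators (7.69% lower, against 0.959%, median -0.065). Of 27 nucleotide metabolism genes, Uck1, Rrm2 and Tk1 fell (11.1%, against 0.959%) and none rose (median -0.083). Rrm2 and Tk1 are also counted among the replication genes above. The calls of Rrm2 and Cenpa held when any 1 of the 8 arrays was left out. With a whole experiment left out, the call ended for Rrm2 (without experiment 1 or 2, adjusted p up to 0.0609). Significance was lost without any 1 array other than A+F 1 for Uhrf1 (adjusted p up to 0.122), without any 1 array other than A+F 3 for Rfc5 (adjusted p up to 0.141) and without any 1 array other than PBS 4 for Cdc6 (adjusted p up to 0.128). The adjusted p was above 0.05 without any 1 array other than A+F 3 or PBS 4 for Tk1 (adjusted p up to 0.144).

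**Figure D4:**
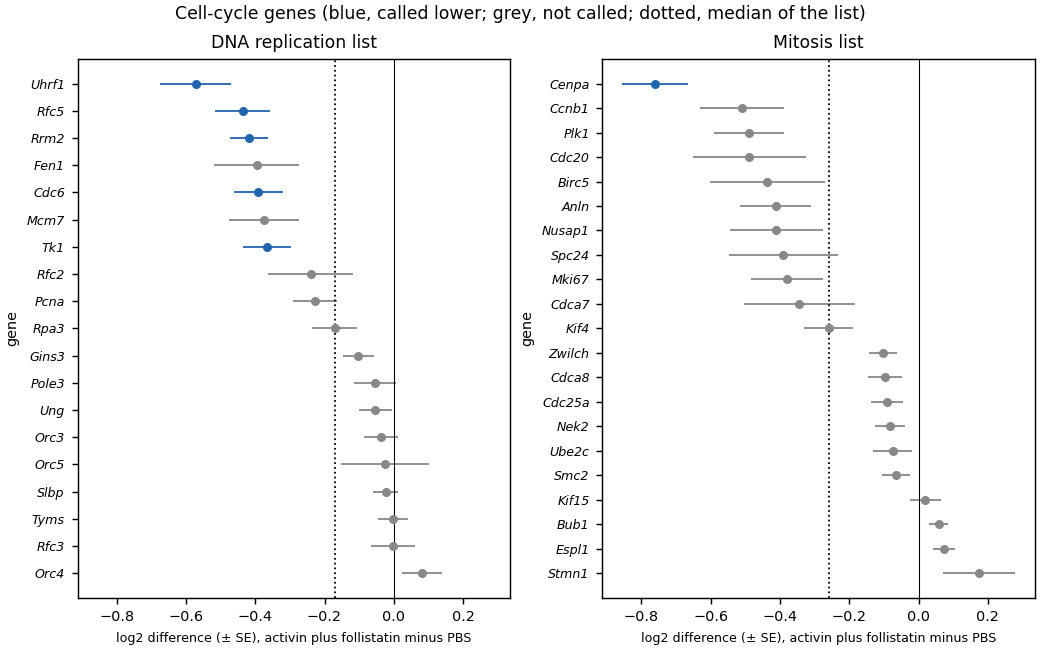
Fitted log2 difference of activin plus follistatin minus PBS (horizontal, with SE) for the 19 measured genes of DNA replication (left) and the 21 of mitosis (right), with called genes in blue, others in grey and a dotted line at the median of the list. All but 1 replication gene and 17 of 21 mitotic genes lie left of 0, several of the replication genes by less than their SE.

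Of 99 histone and chromatin genes 3 rose (3.03%, against 1.2% of all named genes) and 3 fell (3.03%, against 0.959%), and the median was 0.022. H2az1, a histone variant of active and replicating chromatin, fell by 0.46 ± 0.073 (adjusted p = 0.0196), H2ac24 by 0.93 ± 0.18 (adjusted p = 0.0426) and H2ac22 by 0.84 ± 0.16 (adjusted p = 0.0432). Cbx7, a Polycomb protein, rose by 0.34 ± 0.032 (adjusted p = 0.00125), at 8.52 with activin plus follistatin and 8.18 with PBS, and H2bc13 and H2bc15 rose by 0.21 ± 0.035 and 0.23 ± 0.040 (adjusted p = 0.0228 and 0.0306). The clustered histone genes H2ac22, H2ac24, H2bc13 and H2bc15 have near-identical copies that a probe may also read, so their values are uncertain. The call of Cbx7 held when any 1 of the 8 arrays was left out. The adjusted p was above 0.05 without any 1 array other than A+F 1, A+F 2 or A+F 4 for H2az1 (adjusted p up to 0.0928), without any 1 of the 8 for H2ac24 (adjusted p up to 0.172) and without any 1 array other than A+F 4 for H2ac22 (adjusted p up to 0.172). The call ended without any 1 array other than PBS 3 for H2bc13 (adjusted p up to 0.0814) and without any 1 array other than A+F 4 or PBS 4 for H2bc15 (adjusted p up to 0.133).

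Transcription factors with a call were few. Gata3, a zinc-finger factor of lymphoid and epithelial development, was at 9.63, 9.39, 9.29 and 8.86 with activin plus follistatin, against 9.01, 8.43, 8.53 and 8.30 with PBS, and rose within experiments by 0.73 ± 0.063 (adjusted p = 0.000748), with overlap between the groups. Klf7, a Krüppel-like factor, rose by 0.54 ± 0.081 (adjusted p = 0.0139). Foxo1, a forkhead factor that is high in granulosa cells of growing follicles, fell by 0.32 ± 0.057 (adjusted p = 0.028), at 9.74 with activin plus follistatin and 10.06 with PBS. These were the called members of 90 developmental factors, whose median was 0.0058. Of that list 2.22% rose, against 1.2% of all named genes, and 1.11% fell, against 0.959%. Rorb, an orphan nuclear receptor, rose by 0.58 ± 0.049 (adjusted p = 0.000643), at 8.12 with activin plus follistatin and 7.54 with PBS, where it was near background. Fosl2, of the AP-1 family, rose by 0.33 ± 0.052 (adjusted p = 0.0179) and was the called member of 12 immediate early genes (8.33% higher, against 1.2%). The calls of Gata3 and Rorb held when any 1 of the 8 arrays was left out. The call ended without any 1 array other than A+F 2, A+F 4 or PBS 1 for Klf7 (adjusted p up to 0.0615), without any 1 array other than PBS 1 for Foxo1 (adjusted p up to 0.126) and without any 1 array other than A+F 4, PBS 2 or PBS 4 for Fosl2 (adjusted p up to 0.0697).

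In metabolism, 2 of 22 cholesterol genes fell (9.09%, against 0.959% of all named genes) and none rose. They were Fdps, which makes farnesyl diphosphate (-0.49 ± 0.097, adjusted p = 0.0489), and Acat2, the cytosolic acetoacetyl-CoA thiolase (-0.43 ± 0.074, adjusted p = 0.0257), and both had overlapping groups. Pfkm, the muscle form of phosphofructokinase, an enzyme of glycolysis, rose by 0.41 ± 0.055 (adjusted p = 0.00818). Of 28 glycolysis genes 7.14% rose, against 1.2% of all named genes, and none fell. Of 54 glycosyl- and sulfotransferases, 2 fell, St3gal4 and Chst8 (3.70%, against 0.959%), and 2 rose (3.70%, against 1.2%). The rises were St3gal6, another sialyltransferase (0.48 ± 0.082, adjusted p = 0.0257), and Extl3, of heparan sulfate synthesis (0.22 ± 0.030, adjusted p = 0.00902). None of 35 fatty acid genes was called, with Fabp3, a fatty acid binding protein, at 0.42 ± 0.090 (adjusted p = 0.0643). The calls of Pfkm and Extl3 held when any 1 of the 8 arrays was left out. With a whole experiment left out, the call ended for Pfkm (without experiment 1 or 3, adjusted p up to 0.0742) and Extl3 (without experiment 2 or 3, adjusted p up to 0.0859). The difference missed the threshold without any 1 array other than A+F 1 for Fdps (adjusted p up to 0.167), without any 1 array other than A+F 1 for Acat2 (adjusted p up to 0.0953) and without any 1 array other than A+F 2 for St3gal6 (adjusted p up to 0.112).

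Smaller groups held 1 or 2 calls each. Of the apoptosis genes 9.09% fell, of the chaperones 4% and of the splicing genes 2.20%, against 0.959% of all named genes. Of 22 apoptosis genes, Bok, a BCL2 relative abundant in ovary (-0.45 ± 0.080, adjusted p = 0.0293), and Cycs, cytochrome c (-0.28 ± 0.055, adjusted p = 0.048), fell. Of 50 chaperones, Hspe1, the mitochondrial co-chaperonin (-0.25 ± 0.045, adjusted p = 0.0292), and Ppih, a cyclophilin of the spliceosome (-0.40 ± 0.057, adjusted p = 0.0107), fell. Of 91 splicing genes, Hnrnpdl (-0.51 ± 0.094, adjusted p = 0.0334) and Rbm20 (-0.19 ± 0.035, adjusted p = 0.0347) fell. Single falls were Mrps6 of the mitochondrial ribosome (-0.36 ± 0.061, adjusted p = 0.0253) and Slc8a1, the sodium-calcium exchanger (-0.47 ± 0.084, adjusted p = 0.0301). Mrps6 was 2.86% of 35 mitochondrial ribosomal proteins and Slc8a1 0.794% of 126 solute carriers, against 0.959% of all named genes. The call was lost without any 1 array other than A+F 2 or PBS 2 for Bok (adjusted p up to 0.119), without any 1 array other than A+F 4 for Cycs (adjusted p up to 0.173) and without any 1 array other than A+F 2 or A+F 4 for Hspe1 (adjusted p up to 0.11). The gene was no longer called without PBS 1 or PBS 3 for Ppih (adjusted p up to 0.0604), without any 1 array other than A+F 1 or A+F 2 for Hnrnpdl (adjusted p up to 0.142) and without any 1 array other than A+F 1 for Rbm20 (adjusted p up to 0.136). Significance was lost without any 1 array other than A+F 4 for Mrps6 (adjusted p up to 0.105) and without any 1 array other than A+F 4 or PBS 4 for Slc8a1 (adjusted p up to 0.124).

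Single rises were Pdgfc, a platelet-derived growth factor (0.37 ± 0.054, adjusted p = 0.0116), Il10rb, a shared receptor subunit of the interleukin 10 family (0.44 ± 0.072, adjusted p = 0.0224), and C1s1, a complement protease (0.42 ± 0.059, adjusted p = 0.0106). Ppt1, a lysosomal thioesterase (0.35 ± 0.043, adjusted p = 0.00526), Kif1b, a kinesin (0.29 ± 0.044, adjusted p = 0.0146), Psmd8 of the proteasome (0.39 ± 0.077, adjusted p = 0.0472) and Eef2, the elongation factor (0.19 ± 0.037, adjusted p = 0.0451), rose as well. Each was the called rise of its list, against 1.2% of all named genes. Pdgfc was 3.57% of 28 growth factor genes and Il10rb 1.41% of 71 chemokine and interleukin genes. C1s1 was 7.14% of 14 complement and coagulation genes and Ppt1 3.45% of 29 lysosomal genes. Kif1b was 1.05% of 95 cytoskeleton and motor genes, Psmd8 4.17% of 24 proteasome genes and Eef2 1.96% of 51 translation genes. The call of Ppt1 held when any 1 of the 8 arrays was left out. With a whole experiment left out, the call ended for Ppt1 (without experiment 3, adjusted p up to 0.0721). The gene was no longer called without PBS 1, PBS 2 or PBS 4 for Pdgfc (adjusted p up to 0.0532), without any 1 array other than A+F 1 for Il10rb (adjusted p up to 0.107) and without A+F 3 for C1s1 (adjusted p up to 0.0529). Significance was lost without any 1 array other than A+F 1, PBS 1 or PBS 4 for Kif1b (adjusted p up to 0.077), without any 1 of the 8 for Psmd8 (adjusted p up to 0.169) and without any 1 of the 8 for Eef2 (adjusted p up to 0.141). No member was called among 75 cytosolic ribosomal proteins, 56 interferon response genes, 34 genes of Wnt, Notch and Hedgehog signalling, 83 ion channels, 81 small GTPases and traffic genes, 16 autophagy genes or 16 housekeeping genes. Among those lists Rnd3, a small GTPase (0.54 ± 0.12, adjusted p = 0.0636), Cacna2d1, a calcium channel subunit (-0.60 ± 0.19, adjusted p = 0.259), and Actb, beta-actin (0.25 ± 0.089, adjusted p = 0.331), had the lowest p in theirs.

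**Figure D5:**
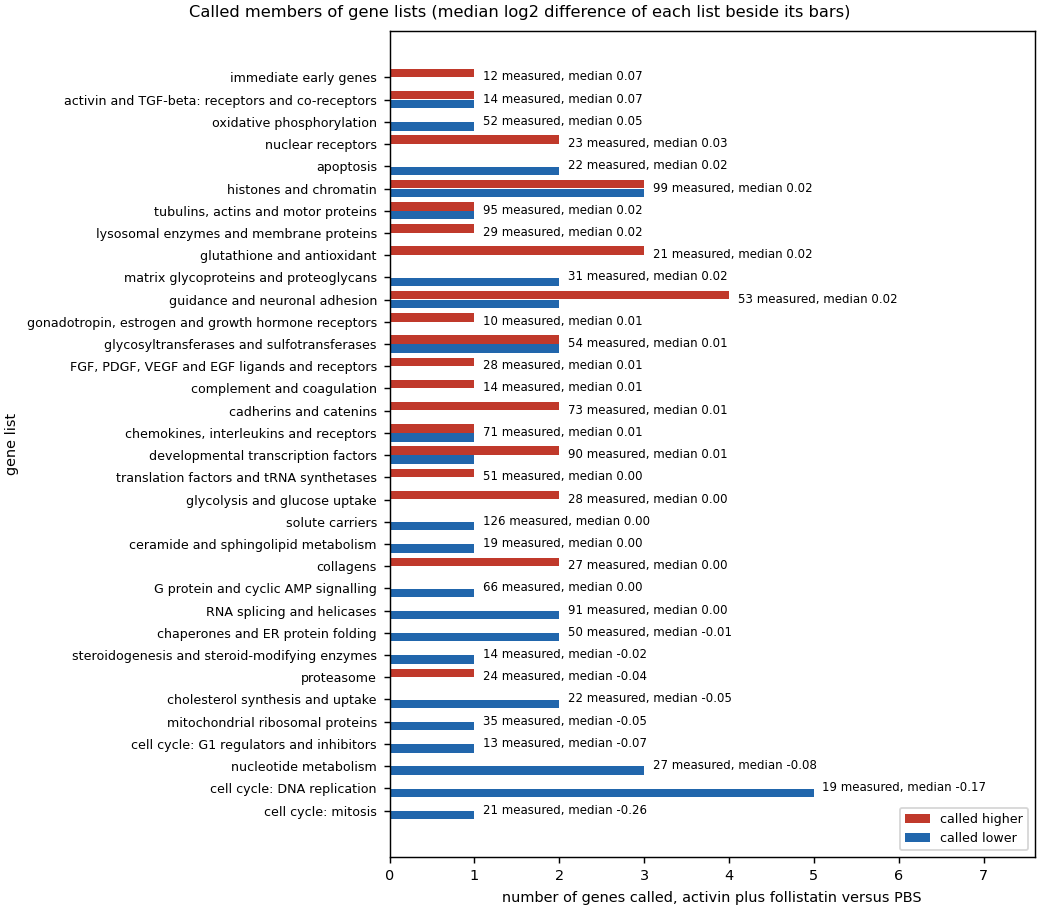
Number of genes called higher (red) and lower (blue) with activin plus follistatin against PBS (horizontal) in the lists with at least 10 measured members and 1 call (vertical), with the measured members and the list's median log2 difference beside the bars. The replication list has the most calls in a direction, 5 of 19 lower, and guidance genes have 4 of 53 higher.

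Markers of other ovarian cells had no calls apart from Robo4. Of 11 measured markers of stroma and theca 7 were above background, and the 2 with the widest differences were not called either. Dcn, decorin, was at 10.69, 10.17, 9.72 and 11.87 with activin plus follistatin, against 9.93, 8.72, 8.61 and 11.004 with PBS (1.05 ± 0.30, adjusted p = 0.186), and Aldh1a1, a retinaldehyde dehydrogenase, differed by 0.52 ± 0.18 (adjusted p = 0.321). Dcn was higher in 4 of 4 experiments with overlapping groups, and experiment 4 was highest in both treatments. The summed level of the 11 markers was 91.7 to 94.7 with activin plus follistatin and 89.5 to 92.4 with PBS, and its part in the results was not tested. Of 10 macrophage and leukocyte markers 1 was above background, and none of these or of 3 oocyte, 2 smooth muscle, 4 surface epithelium and 2 erythroid markers was called.

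Values with activin alone were set beside those of the 176 called genes. Over the genes higher with activin plus follistatin the median difference of activin alone from PBS was -0.43, and over the genes that were lower it was 0.43. The PBS arrays enter both contrasts, so that an array high or low by chance shifts both, and no relation between the contrasts is drawn from these medians. For 20 of the 98 higher genes and 25 of the 78 lower genes activin alone was not called against PBS. That comparison called 863 of the 8135 named genes (10.6%) and left all others uncalled. The share without a call was thus far lower among the 176 genes than among all named genes. Pdlim1 and Plxna2, given above, are among the lower genes without a call for activin alone, as is Rgs4, a regulator of G protein signalling. Rgs4 was at 7.22, 7.56, 7.39 and 7.54 with activin plus follistatin, 8.06, 8.58, 8.0042 and 8.29 with activin alone and 7.68, 8.33, 7.95 and 8.38 with PBS, and fell by 0.65 ± 0.077 (adjusted p = 0.00427), without overlap between activin plus follistatin and PBS. Activin alone differed from PBS by -0.14 (adjusted p = 0.75) for Plxna2 and 0.15 (adjusted p = 0.447) for Rgs4.

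Klhl25, Zc2hc1a and Zfp862-ps, chosen after their values were seen, were the 3 named genes called in the same direction in both contrasts, all lower than with PBS. Klhl25, an adaptor of a cullin ubiquitin ligase, was at 8.93, 8.41, 8.72 and 8.32 with activin plus follistatin, 9.14, 8.66, 8.83 and 8.51 with activin alone and 9.49, 8.94, 9.08 and 8.78 with PBS. It was lower by 0.48 ± 0.034 with activin plus follistatin (adjusted p = 0.000359), and activin alone differed by -0.29 (adjusted p = 0.000833). Zc2hc1a, a zinc-finger gene, was at 10.66, 11.51, 11.37 and 11.19 with activin plus follistatin, 10.95, 12.07, 11.06 and 11.15 with activin alone and 11.41, 12.43, 11.96 and 11.67 with PBS. It was lower by 0.68 ± 0.11 (adjusted p = 0.0224), and activin alone differed by -0.56 (adjusted p = 0.0163). Zfp862-ps, a zinc-finger pseudogene, was at 9.42, 9.77, 9.82 and 9.68 with activin plus follistatin, 9.40, 9.74, 9.71 and 9.84 with activin alone and 9.74, 10.001, 10.02 and 10.06 with PBS. It was lower by 0.28 ± 0.042 (adjusted p = 0.0138), and activin alone differed by -0.28 (adjusted p = 0.00309). Levels of the 3 genes overlapped between activin plus follistatin and PBS, and each was lower in 4 of 4 experiments. The calls of Rgs4 and Klhl25 held when any 1 of the 8 arrays was left out. Significance was lost without any 1 array other than A+F 3 or A+F 4 for Zc2hc1a (adjusted p up to 0.107) and without A+F 1, PBS 1, PBS 3 or PBS 4 for Zfp862-ps (adjusted p up to 0.0657).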

How the data were processed

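Illumina Sentrix Mouse-6 arrays were run on 12 cultures, 4 per treatment. The authors deposited 1 normalized table of log2 or similarly transformed values between 6.75 and 16.2, read here as plain log2. The submitters' processing notes name lumi 1.2.0, with no role given, and the background and normalization methods are not given in the sources used here. The table holds no detection calls, and the correlation between arrays was 0.967 to 0.994. The number of arrays limits the precision.

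Of 46116 probes, 32 control spots were left out and 46084 tested. Zero-padded numbers in the probe identifiers were read as Entrez gene numbers: 82.6% of 11897 were in the RefSeq gene table (assembly GRCm38.p6), against 46.0%, 44.6% and 41.5% after adding 1, 2 and 5. RefSeq accessions named 9 further probes and mitochondrial names 13. In all 9854 probes (21.4%) of 8135 genes were named, and RIKEN clone names were not used. The probe with the highest mean stood for its gene.

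Differences were fitted with limma 3.58.1 in R 4.3.3 over the 12 arrays, with treatment and experiment as fixed terms, 2-sided moderated statistics and Benjamini-Hochberg adjustment over 46084 probes at 0.05. Errors after ± are standard errors of the fit. The numbers pair the arrays, since the study's design text says that a number marks 1 experiment. Deviations from group means of activin plus follistatin and PBS arrays of 1 experiment correlated at 0.331 to 0.801, against -0.632 to 0.406 for other pairs of arrays, over 14707 probes above background. These ranges overlap. Deviations from a group mean sum to 0, so positive values within experiments lower those of other pairs. Over all probes tested the consensus correlation within experiments was 0.079. An exact sign-flip test over 4 pairs cannot give a p below 0.125. The code was tested on simulated data. Cultures of separate experiments are the replicates.

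Genes were named in the text by rule: the 15 largest rises and 15 largest falls called in the same direction in 4 of 4 experiments, anchor genes of granulosa cells, called members of gene lists (up to 6 a list by p) and the lowest p in lists without calls. Some genes that meet the rule are not reported here. Members and lists were chosen with earlier results of these data known, so gene lists are described by counts and medians with no test. Motif shares are of the first RefSeq promoter window of a gene. Alternatives covered the block, the arrays in the fit, normalization, dim probes, array weights, the variance prior, the average of a gene's probes and leaving out arrays or experiments.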

Additional observations from a re-analysis of the deposited data

Results flagged for a closer look

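In the 78 called genes described here, the 4 levels with activin plus follistatin, the 4 levels with PBS and the 4 differences within experiments of each gene were searched for a value far from the other 3. There were 9 (3.85% of the groups of 4), and chance flags about 1 in 20 groups. Among the differences within an experiment, activin plus follistatin minus PBS, Chst8 stood apart in experiment 2 (-0.75, a smaller fall), Slc8a1 in experiment 4 (-0.13, a smaller fall), Cdc6 in experiment 2 (-0.51, a larger fall) and Hspe1 in experiment 2 (-0.42, a larger fall). Among levels with activin plus follistatin, Tuba8 was low in experiment 1 (7.41), Hsd11b2 was low in experiment 4 (7.15) and Cbx7 was low in experiment 4 (8.40). Among levels with PBS, Pfkm was low in experiment 2 (9.90) and Arhgef3 was high in experiment 4 (11.8).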

How the results depend on the processing

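The fit with the replicate block called 557 probes and 176 named genes. Without the replicate block 82 probes and 21 named genes were called, with experiment as a random block 132 probes and 38 genes, and with the 8 compared arrays alone, block kept, 1445 probes and 455 genes. Leaving out single arrays or whole experiments gave 183 to 595 probes and 53 to 185 genes, the lowest without experiment 3 and the highest without experiment 4. Fits that leave out arrays hold fewer samples, and the cause of the other shifts was not tested. Quantile normalization (584 probes), median centring (573), dim probes removed (668), array weights (718) and a trended robust prior (650) stayed within 1.5 times in number, and called again 168, 173, 168, 176 and 123 of the 176 genes. Of the 78 called genes described, 31 kept their call without any 1 array and 21 without any 1 experiment, with adjusted p up to 0.173 and 0.254, 16 were called without the block, and 78 in the 8-array fit. None of the called genes described changed direction in any of these settings. Uncalled differences changed sign with arrays or experiments left out for Cyp11a1 (-0.033 to 0.28), Egfl7 (-0.075 to 0.023), Esr1 (-0.014 to 0.075) and Pecam1 (-0.0074 to 0.064). Signal over background limits the dim genes, and 31.9% of all probes lay above background.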
